A study of Homo sapiens with 48 samples.

Results

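The ATP-binding cassette (ABC) genes were examined in PSN1 cells, a human pancreatic cancer line, during and after culture with Talazoparib, an inhibitor of the DNA repair enzyme PARP that traps it on DNA. The members were the genes whose symbol is ABC, a letter from A to G and a number. There were 45 of them among the 20241 protein-coding genes measured, with 12 in subfamily A, 9 in B, 11 in C, 4 in D, 1 in E, 3 in F and 5 in G. RNAseq was available for 9 PSN1 libraries in 3 groups of 3. Parental cells were wild type and untreated. TalaR-M cells were made resistant to Talazoparib and kept in 50 nM of the drug, with 4 months given as the time. TalaR-DF cells were resistant cells that had then been cultured without drug for 4 weeks. Both resistant groups came from the same parental line, and whether they were clones or mixed populations is not given in the sources used here. The replicates are described only as triplicates, so p-values measure the spread between these libraries, which may be technical. Other cell lines and short treatments of the series were not analysed here.

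ABC proteins bind and split ATP, and most of them use that energy to move a substrate across a membrane. Several members pump drugs out of cells. P-glycoprotein (encoded by ABCB1) and BCRP (encoded by ABCG2) are known efflux pumps of many anticancer drugs, and P-glycoprotein exports several PARP inhibitors, Talazoparib among them. Members of subfamilies A and G move cholesterol and other lipids, those of subfamily D serve peroxisomes or handle cobalamin, and those of subfamilies E and F act in translation and transport nothing.

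The values were on a log2 scale of CPM, read counts scaled to the depth of the library, and were listed at 0 at or below 1 CPM, which corresponded to between 6.97 and 14.5 reads. Depth lay between 12710736 and 14168347 reads in parental cells and between 12213598 and 13936860 in TalaR-DF cells. TalaR-M replicate 2 had the lowest depth, 8387756 reads, against 14973853 and 12597643 in TalaR-M replicates 1 and 3. Of 11 pancreatic ductal and epithelial markers, 9 were above 0 in at least 1 library, and CDH1 and PDX1 were listed at 0 in all 9. The summed level of 7 fibroblast markers was 424 to 441 CPM in parental, 290 to 424 CPM in TalaR-M and 44.9 to 49.3 CPM in TalaR-DF libraries, with ACTA2 and FAP at 0 throughout. Summed markers of immune cells (at most 14.7 CPM), endothelial cells (at most 30.9 CPM), hepatocytes (at most 95.4 CPM) and acinar cells (at most 5.32 CPM) were highest in parental libraries, except for the acinar list. The summed level of the ductal and epithelial list was 1240 to 1300 CPM in parental, 1820 to 5860 CPM in TalaR-M and 1050 to 1190 CPM in TalaR-DF libraries. All libraries came from a single cell line, so these markers do not count cells of other types. The part of these markers in the results was not tested. In bulk RNA fewer cells with a marker and less RNA per cell cannot be told apart.

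TalaR-M replicate 2 stood apart from all other libraries. Among the 29 ABC genes that could be tested, 11 differed by at least 2-fold between this library and the mean of TalaR-M replicates 1 and 3, while at most 1 did so in any of the other 8 libraries. Its deviation went with transcript length over all genes, from a median of 1.35 (log2) in the 1240 genes with the shortest transcripts to -1.37 in the 1240 with the longest. ABC transcripts are long, with a median of 5043 bases against 3408 for all genes tested, and their median deviation was -0.52 against -0.31. Among the members the Spearman correlation of deviation and length was only -0.18, against -0.62 over all genes. In the length bins with medians of 4406 and 5284.5 bases, all genes had median deviations of -0.79 and -0.94, lower than the members. The part of length in the members' values was not tested. The counts of called genes, and the fold changes that this library moved most, are therefore given with and without it.

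**Figure D1:**
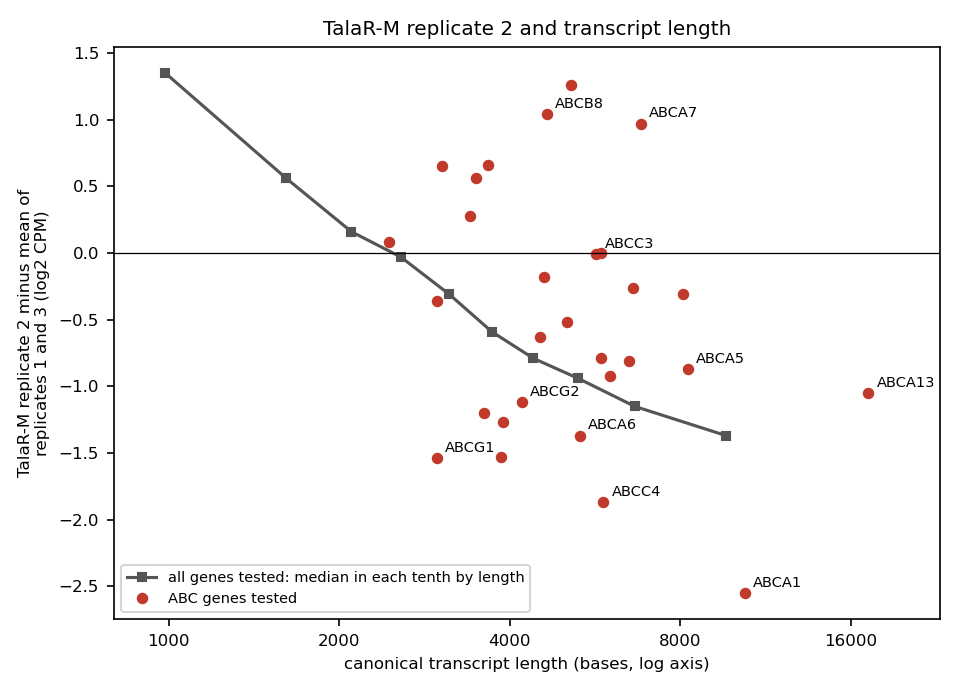
The difference between TalaR-M replicate 2 and the mean of TalaR-M replicates 1 and 3 (log2 CPM, y axis) against the length of the canonical transcript (bases, log x axis). Grey squares are medians of all genes tested in 10 bins by length, and they fall from 1.35 to -1.37. Red points are the 29 ABC genes, of which ABCA1 lies lowest at -2.55.

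Promoters are shown for 3 genes that differed between groups and have an upstream sequence in RefSeq: ABCG2, which was higher in both resistant groups, and ABCA5 and ABCA6 of a cluster on chromosome 17, which differed from parental cells in different groups. They were chosen after their values were seen. The stretches are read 5′ to 3′ on the minus strand, on which these genes lie, and hold the part of the 250 bases before a RefSeq start of GRCh38.p14 that overlaps no annotated exon. Capitals mark a GC box (GGGCGG) or the core of the xenobiotic response element (GCGTG), each searched on both strands. The ABCG2 stretch is chr4:88159025-88159159, that of ABCA5 is chr17:69327245-69327383 and that of ABCA6 is chr17:69141896-69142145. The ABCG2 stretch lies before an alternative start, 270 bases from the canonical one. The 250 bases before the canonical ABCG2 start, which enter the counts below, were 73.6% G and C, with 0 GC boxes and 2 xenobiotic response element cores.
ABCG2: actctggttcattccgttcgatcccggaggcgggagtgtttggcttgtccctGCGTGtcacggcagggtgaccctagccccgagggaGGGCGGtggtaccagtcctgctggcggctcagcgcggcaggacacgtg
ABCA5: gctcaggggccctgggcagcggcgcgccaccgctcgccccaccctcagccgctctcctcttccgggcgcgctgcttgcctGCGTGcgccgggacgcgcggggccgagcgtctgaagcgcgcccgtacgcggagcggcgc
ABCA6: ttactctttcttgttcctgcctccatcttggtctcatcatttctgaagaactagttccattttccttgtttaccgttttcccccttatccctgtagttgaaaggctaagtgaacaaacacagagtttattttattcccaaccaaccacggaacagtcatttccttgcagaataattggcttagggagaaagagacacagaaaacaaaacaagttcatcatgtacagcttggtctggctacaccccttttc

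The stretch before ABCA5 was 79.9% G and C and held 24 CpG dinucleotides in 139 bases, whereas that before ABCA6 was 40.8% G and C with 2 CpG in 250 bases. The ABCG2 stretch was 66.7% G and C with 12 CpG in 135 bases. RefSeq held an upstream sequence for 35 of the 45 members. Over the 250 bases before the canonical start, the GC box was found in 51.4% of these 35 and the xenobiotic response element core in 42.9%. For all 27305 promoters, the first start listed for each gene symbol was used instead, and the shares were 42.3% and 31.9%. The sets, also for the motifs below, are thus not matched, and their median G and C was 62.4% and 58.0%. The E-box CAGGTG, the sequence to which SNAI2 binds, occurred before 8 of the 35 members (22.9%), ABCA5 and ABCA1 among them, and before 17.5% of all promoters. The core of the antioxidant response element (TGACNNNGC) occurred before 6 members (17.1%) and before 11.0% of all promoters.

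Of the 45 members, 23 were above 1 CPM in all 9 libraries and 14 were listed at 0 in all 9, which is 31.1% of members against 35.7% of all genes. The remaining 8 were above 1 CPM in some libraries. A gene was tested if it was above 1 CPM in at least 3 libraries, which 29 members met. ABCC2 met it only through TalaR-DF cells. ABCC8 and ABCC9, which form the regulatory subunit of potassium channels, were each above 1 CPM in 2 parental libraries and in none of the resistant cells, and were not tested. Genes were called at a Benjamini-Hochberg adjusted p under 0.05 from limma and at least a 2-fold change.

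The 14 genes listed at 0 included 4 of those grouped here as drug pumps or their close relatives. ABCB1, which lies on chromosome 7 from 87503017 to 87713323 (hg38), was at 0 in the 3 parental, the 3 TalaR-M and the 3 TalaR-DF libraries. Its neighbour ABCB4, which flips phosphatidylcholine into bile, and the subfamily C members ABCC11 and ABCC12 were also at 0 in all 9. Expression of these genes was thus at or below 1 CPM in every library, where low levels cannot be told from none. The others at 0 were ABCA4, ABCA8, ABCA9, ABCA12, ABCB5, the bile salt pump ABCB11, the peroxisomal ABCD2, and the sterol transporters ABCG4, ABCG5 and ABCG8.

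In TalaR-M against parental cells, 6 of the 29 members tested were called (background 13.3% of all 12471 genes tested): ABCA5, ABCG2 and ABCC3 rose and ABCG1, ABCA2 and ABCA3 fell. Without TalaR-M replicate 2, 4 members were called (background 13.9%), since ABCA2 and ABCA3 then lay just under a 2-fold change. In TalaR-DF against parental cells, 4 members were called (background 9.73%): ABCG2 rose and ABCG1, ABCA6 and ABCA7 fell. Without TalaR-M replicate 2, which shares the estimate of the spread, ABCA1 was added and 5 were called (background 11.4%). In TalaR-M against TalaR-DF cells, ABCA5, ABCA6, ABCC3 and ABCG1 were called, all higher in TalaR-M, 4 of 29 in all (background 6.93% called and 5.29% called higher). Without TalaR-M replicate 2 they were joined by ABCA13, giving 5 (background 8.36% called and 6.96% called higher). The median log2 fold change of the members tested was -0.08, -0.04 and -0.14 in these comparisons, beside -0.09, 0.01 and -0.09 for all genes. The first and second comparisons share the parental libraries, and the third shares a resistant group with each of them.

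**Figure D2:**
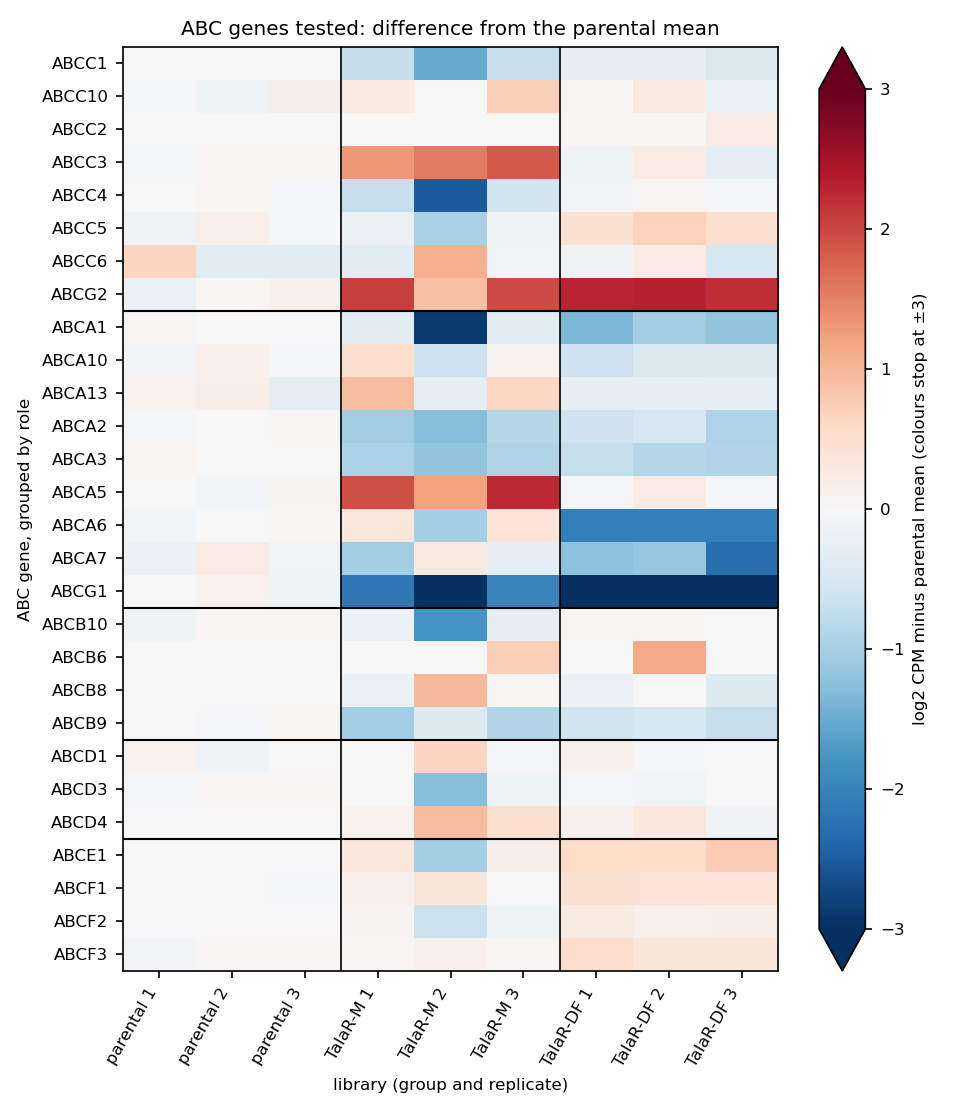
Each cell is the log2 CPM of 1 of 28 of the 29 ABC genes tested (rows, grouped by role) in 1 of 9 libraries (columns), minus the parental mean of that gene. Red is higher and blue lower, with colours ending at a difference of 3. ABCG2 is red in all 6 resistant libraries, ABCC3 and ABCA5 are strongly red in TalaR-M libraries, and ABCG1 is blue in all 6.

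Among the 12 genes listed for drug efflux, 8 were tested. ABCG2, which encodes a transporter that pairs with itself to form BCRP, lies on chromosome 4 from 88090150 to 88231628. It stood at 2.15, 2.39 and 2.47 log2 CPM in parental, at 4.39, 3.23 and 4.29 in TalaR-M and at 4.62, 4.66 and 4.53 in TalaR-DF libraries. All 6 resistant libraries were above all parental ones, and TalaR-M replicate 2 was the lowest of the 6. Its log2 fold change against parental cells was 1.64 in TalaR-M (standard error 0.30, adjusted p = 0.00513 from limma), or 2.01 without replicate 2 (adjusted p = 6.81e-08). In TalaR-DF cells it was 2.27 (standard error 0.30, adjusted p = 0.00115), a 4.81-fold rise. The TalaR-M and TalaR-DF libraries did not overlap, yet the difference between them, -0.63 in TalaR-M, did not pass the test (adjusted p = 0.192), nor did that of -0.26 without replicate 2 (adjusted p = 0.0999).

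ABCC3, which encodes MRP3, a pump of glucuronide conjugates and bile salts, lies on chromosome 17 from 50634777 to 50692253 and showed a different order of groups. Its levels were 4.55, 4.64 and 4.64 log2 CPM in parental, 5.92, 6.17 and 6.44 in TalaR-M and 4.49, 4.83 and 4.34 in TalaR-DF libraries. Here TalaR-M replicate 2 lay between its partners, and the TalaR-DF libraries spread around the parental ones. ABCC3 rose by 1.56 in TalaR-M against parental cells (standard error 0.18, adjusted p = 0.000524), or by 1.57 without replicate 2 (adjusted p = 5.38e-06), and was higher by 1.62 against TalaR-DF cells (adjusted p = 0.000991). Between TalaR-DF and parental cells the log2 fold change was -0.06 (standard error 0.18, adjusted p = 0.895).

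The most abundant drug pump per length of transcript was ABCC1, which encodes MRP1, an exporter of glutathione conjugates. It reached 7.68, 7.64 and 7.66 log2 CPM in parental, 6.95, 6.15 and 6.98 in TalaR-M and 7.37, 7.4 and 7.22 in TalaR-DF libraries. All TalaR-M libraries were below the TalaR-DF ones, which were below the parental ones. The log2 fold change in TalaR-M against parental cells was -0.96 (adjusted p = 0.0142), or -0.69 without replicate 2 (adjusted p = 2.48e-06), both under 2-fold. It passed 2-fold when TalaR-M replicate 1 (-1.09, adjusted p = 0.0156) or replicate 3 (-1.11, adjusted p = 0.0147) was left out instead, so that replicate 2 weighed more. ABCC4, which encodes MRP4, an exporter of cyclic nucleotides and prostaglandins, stood at 5.59, 5.62 and 5.51 in parental, 4.89, 3.08 and 5.0 in TalaR-M and 5.49, 5.6 and 5.5 in TalaR-DF libraries. All TalaR-M libraries were below all others, replicate 2 by far the lowest. The log2 fold change against parental cells was -1.25 (adjusted p = 0.0818) with that library and -0.63 (adjusted p = 2.43e-05) without it. Only without TalaR-M replicate 3 was it called (-1.59, adjusted p = 0.0459), over a range of adjusted p from 2.43e-05 to 0.194 in all fits.

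ABCC5, which encodes MRP5, another exporter of cyclic nucleotides, was highest in TalaR-DF cells. Its values were 5.53, 5.79 and 5.60 log2 CPM in parental, 5.41, 4.67 and 5.52 in TalaR-M and 6.09, 6.33 and 6.12 in TalaR-DF libraries, so that the TalaR-DF libraries lay above all others. Its log2 fold change in TalaR-DF against parental cells was 0.54 (adjusted p = 0.155), or 0.54 with an adjusted p of 0.00019 once TalaR-M replicate 2 no longer entered the spread. In TalaR-M against TalaR-DF cells it was -0.98 (adjusted p = 0.0277), close to but under 2-fold, and it was called without TalaR-M replicate 1 (-1.08) or replicate 3 (-1.14) but not without replicate 2 (-0.72). ABCC10, which encodes MRP7, was at 3.66, 3.56 and 3.86 in parental, 3.99, 3.68 and 4.4 in TalaR-M and 3.72, 3.98 and 3.47 in TalaR-DF libraries, and the groups overlapped. In TalaR-M against parental cells it differed by 0.33 (adjusted p = 0.307), or by 0.50 (adjusted p = 0.0228) without replicate 2.

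Both remaining pumps lay near the lower limit. ABCC2, which encodes MRP2, was at 0 in all parental and TalaR-M libraries and at 0.05, 0.03 and 0.24 log2 CPM in TalaR-DF libraries, barely above 1 CPM. It was tested only through the TalaR-DF libraries and was not called, so no p is given. ABCC6 was at 1.17, 0.20 and 0.18 in parental, 0.21, 1.58 and 0.44 in TalaR-M and 0.39, 0.74 and 0 in TalaR-DF libraries with no separation of groups, and its value is uncertain because pseudogenes on the same chromosome (ABCC6P1 and ABCC6P2) can share its reads.

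Per kilobase of canonical transcript, the order of the pumps differed between groups. In parental cells the geometric mean level was 31.0 CPM per kb for ABCC1, followed by ABCC5 at 8.61, ABCC4 at 8.13, ABCC3 at 4.30, ABCC10 at 2.57 and ABCG2 at 1.20. In TalaR-M cells without replicate 2, ABCC1 was at 19.2 and ABCC3 came next at 12.7, ahead of ABCC5 at 7.62, ABCC4 at 5.26, ABCG2 at 4.82 and ABCC10 at 3.63. With replicate 2 included, ABCG2 (3.73) lay above ABCC4 (3.42). In TalaR-DF cells ABCC5 was again second at 12.5 behind ABCC1 at 24.7, with ABCC4 at 7.89, ABCG2 at 5.77, ABCC3 at 4.12 and ABCC10 at 2.62. ABCG2 thus moved from the lowest of these 6 pumps to a place above ABCC10 in both resistant groups. ABCC5 and ABCC4 in parental cells differed by less than the spread of ABCC5 between libraries.

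**Figure D3:**
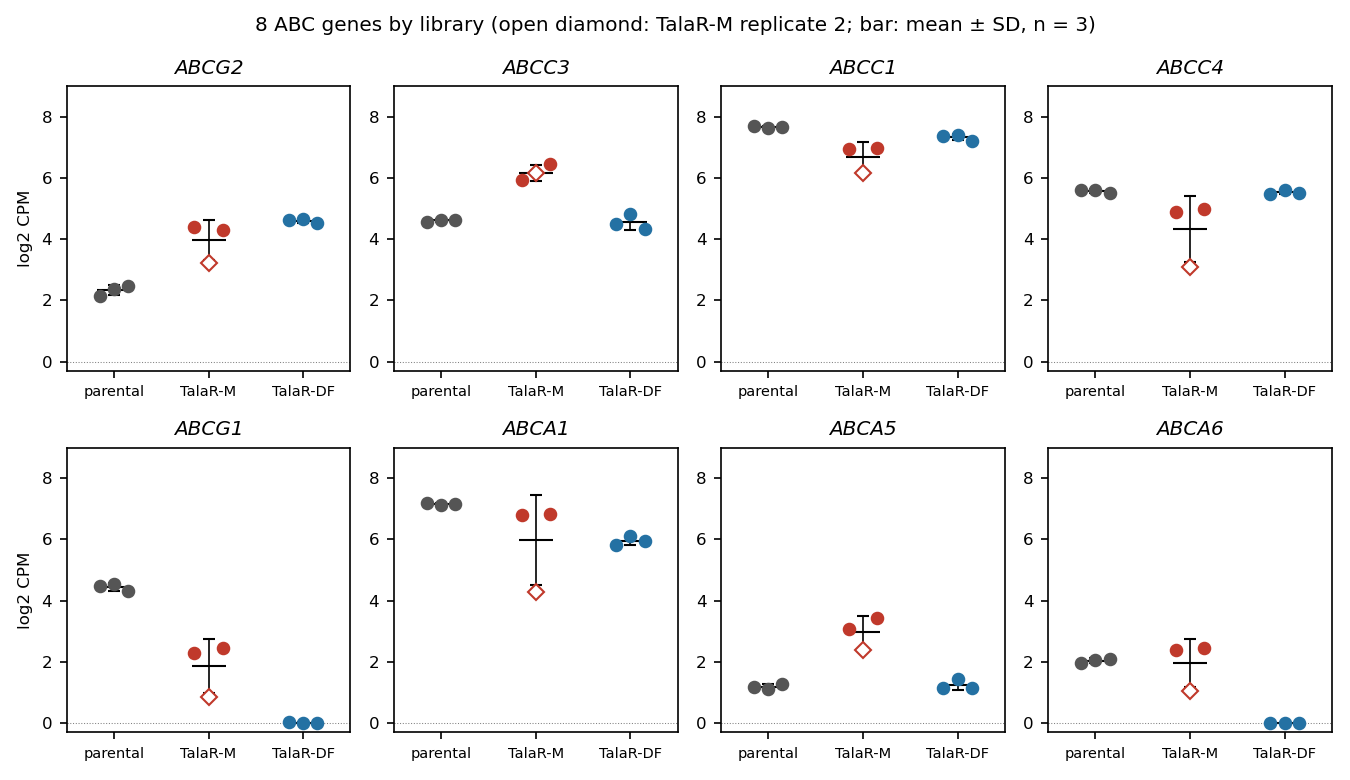
Log2 CPM of 8 ABC genes (panels) in each library of the 3 groups, with TalaR-M replicate 2 as an open diamond and horizontal bars with whiskers for mean ± SD (n = 3). ABCG2 is high in both resistant groups, ABCC3 and ABCA5 in TalaR-M cells, and ABCG1 and ABCA6 are at or near 0 in TalaR-DF cells.

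The genes of cholesterol and lipid export, together with all of subfamily A, numbered 16, of which 9 were tested. Their largest change was that of ABCG1, which moves cholesterol to high-density lipoprotein and lies on chromosome 21 from 42199689 to 42297244. It stood at 4.47, 4.55 and 4.32 log2 CPM in parental and at 2.30, 0.85 and 2.47 in TalaR-M libraries, and in TalaR-DF libraries at 0.05, 0 and 0. The groups did not overlap. ABCG1 fell by 2.58 in TalaR-M against parental cells (standard error 0.38, adjusted p = 0.0018), or by 2.06 without replicate 2 (adjusted p = 1.01e-07). With 2 of the 3 TalaR-DF libraries at the lower limit, the gene was at least 21.6-fold lower there than in parental cells (adjusted p = 0.000103), and at least 3.62-fold lower than in TalaR-M cells (adjusted p = 0.0173). The latter call was lost without TalaR-DF replicate 1, 2 or 3 (adjusted p = 0.0641, 0.0676 and 0.0702).

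ABCA1, which loads cholesterol and phospholipid onto apolipoprotein A-I, lies on chromosome 9 from 104781006 to 104928155. Its levels were 7.18, 7.13 and 7.14 log2 CPM in parental, 6.81, 4.27 and 6.84 in TalaR-M and 5.81, 6.12 and 5.96 in TalaR-DF libraries. TalaR-M replicate 2 was far below every other library. In TalaR-DF against parental cells the log2 fold change was -1.19, with an adjusted p of 0.246 when that library widened the shared spread and of 6.38e-08 without it. In TalaR-M against parental cells it was -1.18 (adjusted p = 0.191), but -0.33 (adjusted p = 0.0038) without replicate 2.

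ABCA2 and ABCA3, which move lipids in lysosomes and lamellar bodies, were lower in both resistant groups. ABCA2 was at 8.23, 8.25 and 8.34 log2 CPM in parental, 7.22, 7.0 and 7.41 in TalaR-M and 7.64, 7.76 and 7.34 in TalaR-DF libraries. The corresponding levels of ABCA3 were 6.85, 6.78 and 6.78, then 5.84, 5.61 and 5.90, then 6.10, 5.94 and 5.93. For both genes every resistant library was below every parental one. They fell by 1.06 (adjusted p = 0.00186) and 1.02 (adjusted p = 0.000694) in TalaR-M cells, and without replicate 2 the log2 fold changes were -0.96 and -0.93 (adjusted p = 1.17e-05 and 3.87e-07), under 2-fold. ABCA3 was also under 2-fold without parental replicate 1 (-0.99). In TalaR-DF cells they were -0.70 (adjusted p = 0.0174) and -0.81 (adjusted p = 0.0028).

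The subfamily A genes ABCA8, ABCA9, ABCA6, ABCA10 and ABCA5 form, in this order, a cluster on the minus strand of chromosome 17 that spans 460 kb from 68867289 to 69327244. ABCA8 and ABCA9 were at 0 in all 9 libraries. ABCA5 was at 1.17, 1.11 and 1.28 log2 CPM in parental, 3.09, 2.39 and 3.43 in TalaR-M and 1.14, 1.43 and 1.14 in TalaR-DF libraries. The TalaR-M libraries lay above all others, and the parental and TalaR-DF libraries overlapped. ABCA5 rose by 1.78 in TalaR-M against parental cells (standard error 0.25, adjusted p = 0.00141), or by 2.07 without replicate 2 (adjusted p = 4.02e-07), and was higher by 1.73 against TalaR-DF cells (adjusted p = 0.00343).

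ABCA6, 2 genes away, had another pattern. It stood at 1.96, 2.06 and 2.11 log2 CPM in parental and 2.39, 1.05 and 2.46 in TalaR-M libraries and at 0 in all 3 TalaR-DF libraries. ABCA6 was at least 4.12-fold lower in TalaR-DF than in parental cells (adjusted p = 0.00394) and at least 3.90-fold lower than in TalaR-M cells (adjusted p = 0.00786). Between TalaR-M and parental cells its log2 fold change was -0.08 (adjusted p = 0.878), and 0.38 (adjusted p = 0.0235) without replicate 2. ABCA10, which lies between them, ranged from 2.35 to 3.46 over all libraries and was not called. ABCA5 and ABCA10 overlap by 536 bases on the same strand, where their reads cannot be told apart.

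ABCA7, a lipid transporter related to ABCA1, was at 3.43, 3.85 and 3.52 log2 CPM in parental, 2.55, 3.90 and 3.32 in TalaR-M and 2.37, 2.45 and 1.33 in TalaR-DF libraries. The TalaR-DF libraries were below all others, and the other groups overlapped. It fell by 1.55 in TalaR-DF against parental cells (standard error 0.40, adjusted p = 0.0299). This call was lost when any 1 parental or TalaR-DF library was left out, with adjusted p between 0.0502 and 0.114. Without TalaR-M replicate 1 it was called higher in TalaR-M than in TalaR-DF cells (1.56, adjusted p = 0.0389), against 1.21 (adjusted p = 0.092) with all libraries. ABCA13 was near the lower limit, at 0.38, 0.45 and 0 in parental, 1.20, 0 and 0.89 in TalaR-M and 0 in all TalaR-DF libraries. Its difference between TalaR-M and TalaR-DF cells was 0.70 (adjusted p = 0.147) with all libraries. The difference was called without TalaR-M replicate 2 (1.05) and with array weights (1.00), which both take weight from the TalaR-M library at 0. ABCA13 exceeded 1 CPM in 2 parental and 2 TalaR-M libraries, so it passed the filter only with its TalaR-M values. Nothing is drawn from these calls.

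**Figure D4:**
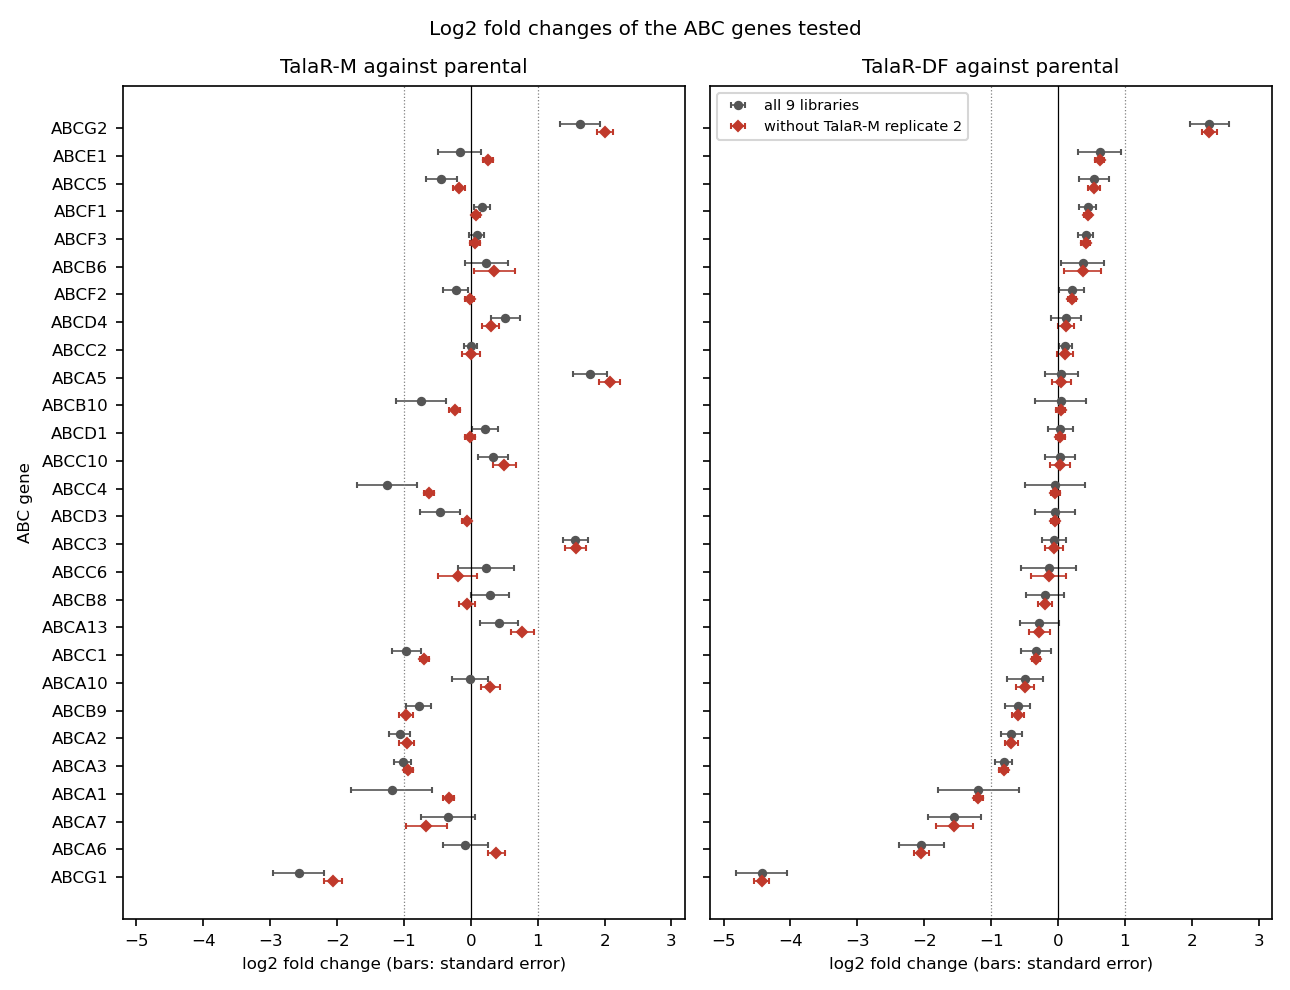
Log2 fold changes of 28 of the 29 ABC genes tested in TalaR-M (left) and TalaR-DF cells (right) against parental cells, with standard errors, from all 9 libraries (grey circles) and without TalaR-M replicate 2 (red diamonds). Dotted lines mark a 2-fold change. ABCG2 is at 1.64 and 2.27 and ABCG1 at -2.58 and -4.43 with all libraries, and ABCA1 and ABCC4 shift most on the left when the library is left out.

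No member of the other groups of the family was called in any comparison, with or without TalaR-M replicate 2. Among the transporters of mitochondria and lysosomes, listed together with ABCB5, 5 of 6 were tested, and ABCB5 was not. ABCB10, a mitochondrial transporter that serves haem metabolism, was between 3.82 and 5.66 log2 CPM, and its lowest value was that of TalaR-M replicate 2. The lysosomal peptide transporter ABCB9 was lower in every resistant library (3.52 to 4.16) than in parental libraries (4.5 to 4.62), with log2 fold changes of -0.78 in TalaR-M (adjusted p = 0.017) and -0.60 in TalaR-DF cells (adjusted p = 0.0554). Without TalaR-M replicate 2 these were -0.97 (adjusted p = 6.99e-06) and -0.60 (adjusted p = 0.000113). ABCB6 was above 1 CPM in 1 library of each group and lies within a read-through gene on the same strand.

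The 3 subfamily D genes tested lay between 5.05 and 7.14 log2 CPM, with no called change. ABCE1, which recycles ribosomes, and ABCF1, ABCF2 and ABCF3, which act in translation, were all higher in each TalaR-DF library than in any parental one, by 0.62, 0.44, 0.20 and 0.41, with adjusted p of 0.246, 0.0384, 0.552 and 0.0392. Without TalaR-M replicate 2 the adjusted p of these same differences were 8.34e-06, 1.33e-05, 0.0109 and 0.000182, all under 2-fold. In that fit 7850 of all 12471 genes tested had an adjusted p under 0.05 in this comparison, against 2315 with all libraries. Small differences of this kind were thus common among all genes. The share of all genes without overlap of these groups was not counted.

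Other members of the ABC superfamily, CFTR, TAP1 and TAP2, do not carry an ABC symbol. CFTR, a chloride channel of ductal epithelium, was at 0 in all parental and TalaR-DF libraries and at 2.40, 0.95 and 1.36 log2 CPM in TalaR-M libraries. This is at least 2.97-fold higher than in either of the other groups. CFTR was above 1 CPM in TalaR-M libraries alone and was tested only through them, so no p is given. TAP1 and TAP2, which carry peptides for antigen presentation, were not called.

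Of 22 regulators of ABC genes, 19 were tested. In TalaR-M against parental cells, 4 of them, ARNT, EPAS1, NR1H4 and VDR, were called lower (background 7.72% of all genes called lower) and none higher, and without replicate 2 only NR1H4 was (background 7.07%). In TalaR-DF cells 3, NR1H3, NR1H4 and TFEB, were called lower (background 7.49%), and EPAS1 and PPARA were added without replicate 2 (background 8.63%). TFEB was the 1 regulator called between TalaR-M and TalaR-DF cells, higher in TalaR-M by 1.70 (adjusted p = 0.015). TalaR-M replicate 2 was the highest of its group for TFEB, at 4.28 against 3.10 and 2.83. Without it the difference was 1.26 (adjusted p = 2e-05). NR1H3 encodes the liver X receptor alpha, an oxysterol sensor that activates ABCA1 and ABCG1. Its mean was 5.15 ± 0.09 log2 CPM (SD, n = 3) in parental, 4.68 ± 0.68 in TalaR-M and 4.09 ± 0.11 in TalaR-DF cells, a log2 fold change of -1.07 in TalaR-DF (adjusted p = 0.0438) and of -0.47 in TalaR-M cells (adjusted p = 0.282). TalaR-M replicate 2 stood at 5.43, above its partners at 4.51 and 4.09, and without it the TalaR-M value was -0.85 (adjusted p = 0.000114). The related receptor NR1H2 was at 5.30 ± 0.03 in parental, 5.90 ± 0.40 in TalaR-M and 5.23 ± 0.17 in TalaR-DF cells. Its log2 fold change in TalaR-M cells was 0.60 (adjusted p = 0.07), or 0.37 (adjusted p = 0.00553) without replicate 2. NR1H4, the bile acid receptor FXR, was at 1.94 ± 0.13 in parental and at 0.01 ± 0.02 in TalaR-M cells. It was at 0 in all 3 TalaR-DF libraries. NR1H4 passed the filter on low values only because the parental libraries were high. No p is given for it, and nothing is drawn from its calls counted above.

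Over the 8 libraries other than TalaR-M replicate 2, the genes whose levels followed ABCG2 most closely were PDPR (Pearson r = 0.998), FBXL16 (0.995), FHOD3, HSDL1 and DNAAF2 (0.994 each). These are descriptions over libraries that fall into 3 groups. FBXL16 had the largest range of the 5, from 2.45 log2 CPM in parental to 5.44 in TalaR-M and 5.84 in TalaR-DF cells.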

How the data were processed

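The RNAseq libraries used came from PSN1 cells, 3 each of the parental, TalaR-M and TalaR-DF groups. Stranded poly(A) libraries were sequenced as paired reads of 150 bases, and the submitters' processing notes name the build hg38. The aligner, counter and annotation are not given in the sources used here. The authors deposited log2 values per gene. From their steps, these proved to be log2 CPM with a small prior count, set to 0 below 1 CPM. All values under 50 CPM gave whole reads (within 0.05 of a read), which were used for depth only.

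Differential expression was tested with limma 3.58.1 in R 4.3.3 in a single model of the 3 groups with a mean-variance trend, over the 12471 genes that exceeded 1 CPM in 3 or more libraries. A call needed a 2-fold change and, after Benjamini-Hochberg adjustment, a p under 0.05. No pseudocount was added. Where a group was at 0, the fold is given as a lower bound, with 1 CPM in its place. An exact permutation test (two-sided) of 3 libraries against 3 reaches 0.1 at best, so none was used. The test was checked on simulated counts without an outlying library, so the check does not bear on TalaR-M replicate 2.

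Members, lists and named genes were chosen with earlier results of these data known. Named with values in every library were the drug efflux list and each member called in a comparison, with or without TalaR-M replicate 2. Genes most like ABCG2 were the 5 with the highest Pearson r.

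Alternatives were a pseudocount of 2 CPM, no filter or a minimum of 5 CPM, median ratio scaling, no trend, array weights, a replicate block, a fit of only the groups compared, no fold threshold, and leaving out each library. Positions and transcript lengths came from GENCODE 44, matched by symbol, and promoters from RefSeq (GRCh38.p14). Figures were drawn with matplotlib. Of the members tested, 1 tested is counted but not reported here by name.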

Additional observations from a re-analysis of the deposited data

How the results depend on the processing

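The number of ABC genes called was 6 in TalaR-M against parental cells, and between 4 and 8 when 1 library was left out. It was 4 in TalaR-DF against parental cells, between 3 and 5 with 1 library left out, and 8 with no fold threshold. In TalaR-M against TalaR-DF cells it was 4, between 3 and 6 with 1 library left out, and 2 when only these 2 groups were fitted, where ABCA6 and ABCG1 lost their calls. The replicate block gave 6, 4 and 4. The correlation of deviations from the group means between same-numbered libraries ran from -0.31 to 0.16. Libraries of different numbers were not compared, so these values cannot decide whether the numbers pair the libraries.

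With median ratio scaling the median over all genes in TalaR-M against parental cells shifted from -0.09 to 0.01 (log2), and ABCA2 and ABCA3 then lost their calls, as they did with array weights. The calls of ABCG2, ABCG1, ABCC3 and ABCA5 against parental cells held in every alternative run. The 6 fits that left out a parental or TalaR-DF library ended the call of ABCA7, and ABCG1 in TalaR-M against TalaR-DF cells lost its call without any 1 TalaR-DF library.

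Values that changed sign were small or rested on TalaR-M replicate 2. With 1 library left out, ABCA1 in TalaR-M against TalaR-DF cells ran from -0.43 to 0.86 (0.01 with all libraries). In TalaR-M against parental cells, ABCA6 ran from -0.33 to 0.38, ABCA7 from -0.66 to 0.01 and ABCC6 from -0.20 to 0.55. In TalaR-DF against parental cells, ABCA5 ran from -0.04 to 0.10, ABCC3 from -0.20 to 0.05, ABCC6 from -0.32 to 0.18 and ABCC10 from -0.10 to 0.16. ABCC6 in TalaR-M against TalaR-DF cells ran from -0.05 to 0.63. Median ratio scaling gave 0.03 for ABCA6 in TalaR-M and -0.01 for ABCC10 in TalaR-DF against parental cells. Array weights gave 0.37 for ABCA6 and -0.12 for ABCC6 in TalaR-M against parental cells, and -0.05 for ABCC6 against TalaR-DF cells. The cause was not tested. Genes at or below 1 CPM cannot be told from 0, which limits ABCC2, ABCA13 and the 14 genes at 0.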

Other observations

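Solute carriers of drugs and nutrients, most of which bring them into cells, were listed beside the pumps. Of 20 measured, 11 were tested and 9 were at 0 in all 9 libraries. Against parental cells, 2 of the 11 were called in TalaR-M (background 13.3% of all genes tested) and 1 in TalaR-DF cells (background 9.73%). SLCO4A1, an organic anion carrier, fell by 1.60 in TalaR-M against parental cells (adjusted p = 9.15e-05 from limma), from 7.93 ± 0.01 to 6.33 ± 0.22 log2 CPM (SD, n = 3), and stood at 7.02 ± 0.11 in TalaR-DF cells. SLC47A1 was also listed, although it is a proton-coupled exporter of organic cations. Its mean rose by 1.23, from 0.22 ± 0.23 in parental to 1.46 ± 0.18 in TalaR-M cells, while no TalaR-DF library exceeded 1 CPM. SLC47A1 met the filter on low values only through its TalaR-M values. Its p is therefore left out, and nothing is drawn from its call counted above. SLC22A18 was lower by 1.54 in TalaR-DF than in parental cells (adjusted p = 0.0416), and SLC29A1, an equilibrative nucleoside carrier, was at 5.62 ± 0.07 in parental, 6.09 ± 0.21 in TalaR-M and 6.55 ± 0.04 in TalaR-DF cells without reaching 2-fold.

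Of 14 partners, anchors and acceptors of ABC proteins, 11 were tested, and 1 was called in each of TalaR-M (background 13.3%) and TalaR-DF cells (background 9.73%) against parental cells. LCAT, which esterifies cholesterol on lipoproteins, rose by 2.00 in TalaR-M against parental cells (adjusted p = 0.0104), or by 1.46 without TalaR-M replicate 2. MVP, the major vault protein, was lower by 1.18 in TalaR-DF than in parental cells (adjusted p = 0.0314). APOE, an acceptor of exported cholesterol, was called in TalaR-DF cells only without TalaR-M replicate 2, at a log2 fold change of -1.49 (adjusted p = 4.37e-08).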
